A study of Mus musculus with 6106 samples.

Results

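Penk, which encodes the opioid precursor proenkephalin, was 1 of the 23725 genes measured in single splenic regulatory T cells (Tregs). It was selected on its own UMI counts in these data, which differed widely between cells sorted by a reporter of T cell receptor signalling. The level of Penk in the 3 sorted bins, and the division of the brightest bin into cells with and without a Penk transcript, are therefore described here and not tested. Everything below that rests on those counts, including the genes found beside Penk, is a description.

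Proenkephalin is a secreted precursor from which several enkephalin peptides are cut at pairs of basic residues by prohormone convertases and trimmed by carboxypeptidases. Enkephalins act on delta and mu opioid receptors and are best known from neurons and the adrenal medulla. T cells transcribe the gene too, and it is known as a gene that Tregs express after T cell receptor (TCR) engagement.

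The cells came from male B6 mice aged 10 months. All of them carried an Nr4a1-Gfp reporter, which reads recent TCR signalling because Nr4a1 is induced soon after engagement, and a Foxp3-Ires-Thy1.1 reporter, which marks Tregs. Live TCR beta+ CD4+ Thy1.1+ spleen cells were collected in 3 bins of GFP, namely GFPlow at 0 to 20, GFPmed at 40 to 60 and GFPhigh at 80 to 100 percent. One inDrops library was made from each, in which droplets add a cell barcode and a unique molecular identifier (UMI) to each captured transcript. The labels name no treatment, and the number of mice behind a library is not given in the sources used here.

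With 1 library per bin and 0 replicates, no test between bins was possible, and cells of 1 library were not treated as replicates. Of 6106 barcodes, the 5435 with at least 500 UMIs were used, of which 1537 were GFPmed, 1775 GFPhigh and the others GFPlow. The Penk-negative cells of GFPlow, GFPmed and GFPhigh had median depths of 1084, 1539 and 1123 UMIs, so GFPmed was the deepest library. Levels are UMIs of a gene per 1000000 UMIs (UPM). Brackets hold exact 95% intervals that cover counting error only, so variation between mice or libraries is not in them. Those of levels and ratios count each UMI as independent, so variation between cells is not in them either. They are too narrow where few cells hold many of the UMIs. Of the cell barcodes, 95 occurred in at least 2 libraries, and 4 of the 78 Penk-positive GFPhigh cells carried one. Removing every such barcode left the ratios of Penk between bins inside their counting intervals.

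The Penk gene lies on chromosome 4 at chr4:4133531-4138819, minus strand, in mm10 (GENCODE M21), spans 5289 bases and has 2 annotated transcripts. Its 5′ end overlaps A830012C17Rik, a transcript on the plus strand that is not among the genes counted. Whether the authors' counting used strand is not given in the sources used here, so reads from the overlapping stretch cannot be told apart. The transcript ENSMUST00000070375.7 has 2 exons, and exon 2 holds all 7 enkephalin copies of the precursor, of which 6 encode Met-enkephalin and 1 encodes Leu-enkephalin. The first copy, the Leu-enkephalin copy and the last copy are shown because they are the peptides that a Penk transcript encodes. Copies 4 and 7 are not followed by a pair of basic codons, and copy 7 lies at the end of the reading frame, so its label names the pentapeptide only. Each is written 5′ to 3′ on the coding strand, from the GENCODE M21 transcript, with the 15 bases of the pentapeptide in capitals and 6 flanking bases on each side in lower case.
Copy 1, Met-enkephalin, chr4:4134328-4134354: aagaagTACGGAGGCTTCATGaaacgg
Copy 6, Leu-enkephalin, chr4:4133935-4133961: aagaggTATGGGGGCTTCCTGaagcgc
Copy 7, Met-enkephalin, chr4:4133842-4133868: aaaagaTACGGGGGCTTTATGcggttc

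The GFPhigh library held more Penk-positive Tregs, with a higher mean number of Penk transcripts in them. Penk was counted at 15 UMIs in the GFPlow library, 21 in GFPmed and 288 in GFPhigh, or 6.16 [3.45, 10.2], 8.36 [5.17, 12.8] and 126.9 [112.6, 142.4] UPM. A Penk UMI was found in 10 GFPlow cells (0.471% [0.226, 0.865]), 12 GFPmed cells (0.781% [0.404, 1.36]) and 78 GFPhigh cells (4.39% [3.49, 5.45]). GFPhigh stood apart from both other bins, whose intervals overlapped. After each cell was thinned to 500 UMIs, so that depth was equal, 3 GFPlow cells (0.141%), 7 GFPmed cells (0.455%) and 52 GFPhigh cells (2.93%) held a Penk UMI. A background share came from 71 cells with at least 5 UMIs of B cell or erythroid markers, at a median depth of 1251 UMIs. Penk was found in 0 of these 71, which allows a share of up to 4.23%, so they set no useful limit on background, and 12.7% of them held the T cell transcript Lck.

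**Figure D1:**
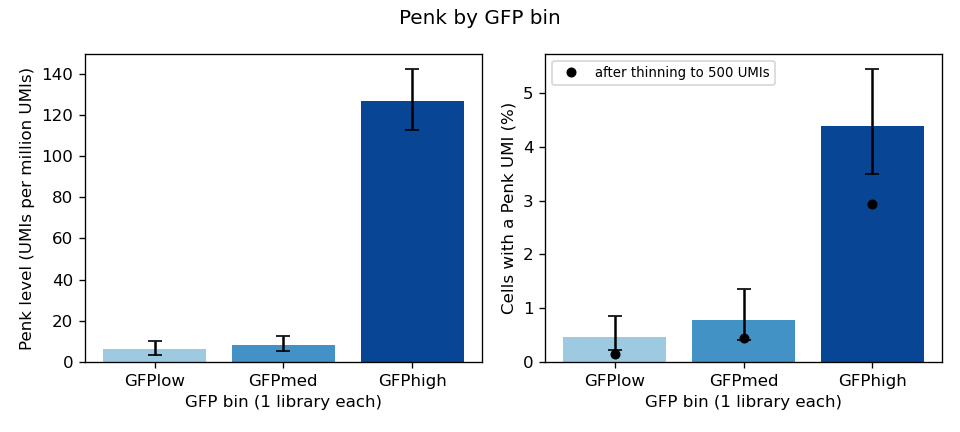
Penk level in UPM (left) and percent of cells with a Penk UMI (right) in each GFP bin, 1 library per bin, with 95% counting intervals as error bars. Black points are the shares after thinning to 500 UMIs, and GFPhigh, at 4.39% before and 2.93% after thinning, lies above both other bins.

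The mean number of Penk UMIs in a positive cell was also higher in GFPhigh, although 58 of its 78 positive cells lay in the range of 1 to 4 UMIs of the other bins. A positive cell held a mean of 1.5 UMIs in GFPlow, with a median of 1, and 1.75 in GFPmed, with a median of 1.5, and neither bin had a cell with more than 4. In GFPhigh the mean was 3.69 ± 3.86 (SD over 78 cells), the median 2 and the maximum 22. The GFPhigh to GFPlow difference in UPM was 20.6-fold, while the share of positive cells differed 9.33-fold and the UMIs per positive cell 2.46-fold. Against GFPmed the same 3 values were 15.2-fold, 5.63-fold and 2.11-fold. GFPmed and GFPlow could not be told apart, with a log2 ratio of 0.43 [-0.584, 1.501].

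Transcripts were concentrated in few GFPhigh cells. Of the 78 positive cells, 27 held 1 Penk UMI, 13 held 2, 7 held 3, 11 held 4 and 20 held 5 or more. Those 20 cells held 59.03% of the Penk UMIs of the bin, 10 cells held 40.6% and 1 cell 7.64%. Among 633 other genes whose GFPhigh total was close to that of Penk (at most 360 UMIs), 0 had as many UMIs per positive cell as Penk. Their median was 1.29 UMIs per positive cell, spread over 215 cells.

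**Figure D2:**
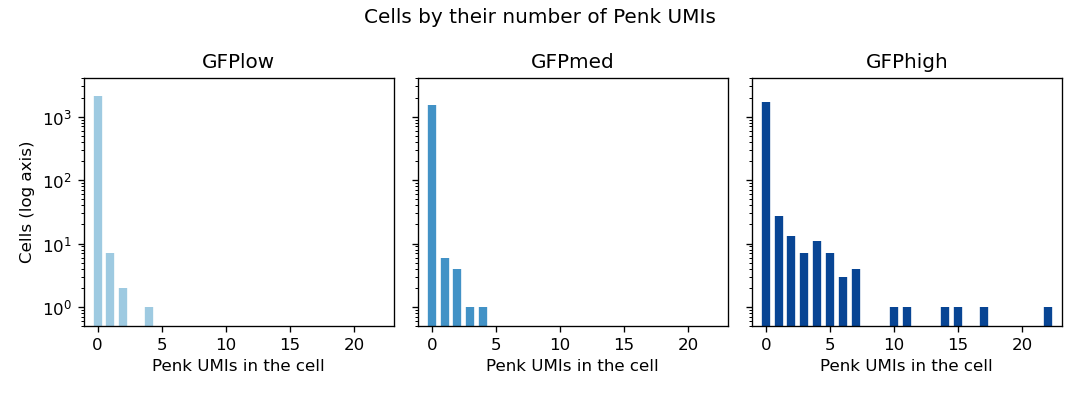
Number of cells (log axis) by their number of Penk UMIs in the 3 bins. GFPlow and GFPmed end at 4 UMIs, whereas GFPhigh reaches 22, with 20 cells at 5 or more.

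The difference between bins was present at every depth. In GFPhigh cells with 500 to 749 UMIs Penk stood at 113.3 UPM, in those with 750 to 999 at 145.8, in those with 1000 to 1499 at 124.6 and in deeper cells at 125.6. The corresponding GFPlow levels were 0, 9.73, 7.59 and 4.10 UPM, and those of GFPmed lay between 0 and 15.9. Thus no depth class of GFPlow or GFPmed reached that of GFPhigh. The share of positive GFPhigh cells was 3.63%, 3.68%, 4.54% and 5.30% over the same classes.

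In each library Penk was highest in the cells with most other TCR-induced transcripts. The classes below them rose in order only in GFPlow, from few UMIs. Cells were classed by their UMIs of a list of early TCR response genes, without Penk and Nr4a1, after thinning to 500 UMIs. In GFPhigh, Penk stood at 69.99 UPM [51.1, 93.7] in cells with 0 such UMIs, 115.5 [90.2, 145.6] with 1, 95.5 [68.2, 130.1] with 2 and 222.3 [186.01, 263.63] with 3 or more. In the GFPlow library the same classes gave 2.03, 5.47, 7.87 and 17.8 UPM, from 2, 4, 3 and 6 UMIs. In GFPmed they gave 7.04, 5.40, 2.57 and 23.2 UPM, from 7, 4, 1 and 9 UMIs. Only the class with 3 or more stood above the others in every library, and in GFPlow and GFPmed its interval overlapped that of cells with 0. GFPhigh cells with 0 response UMIs still lay above the top class of the other libraries, whose upper bounds were 38.8 UPM in GFPlow and 43.99 in GFPmed.

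Within GFPhigh, Penk also differed by the effector state of the cell. In 373 cells with a thinned UMI of an effector gate (S100a4, S100a6, Ccr2, Itgb1 or Vim, genes of activated Tregs) Penk stood at 257.6 UPM [214.4, 306.9], against 91.3 [77.8, 106.5] in the 1402 others. Penk was positive in 7.24% of the former and 3.64% of the latter. A follicular gate (Pdcd1 or Cxcr5) held 60 cells, with Penk at 282.6 UPM [172.6, 436.4] against 121.8 outside it. The level inside this gate came from 20 UMIs in 6 cells. In the gate of central Tregs (Igfbp4, Ly6c1, Ly6c2 or Il7r) Penk stood at 102.4 UPM against 131.5 outside, and in the interferon gate at 104.99 against 134.5, with overlapping intervals for both. The 39 cells with a mitotic transcript held 3 Penk UMIs, or 43.5 UPM [8.96, 127.04], and with so few UMIs their level was not told apart from the 129.5 UPM outside. In GFPlow, Penk stood at 12.4 UPM [6.18, 22.2] inside the effector gate and 2.59 [0.704, 6.62] outside, from 11 and 4 UMIs, with overlapping intervals. GFPlow had 0 Penk UMIs in the 44 cells of the follicular gate, and 8.15 UPM [2.65, 19.03] inside against 5.49 [2.63, 10.1] outside the interferon gate.

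The other genes of the opioid system were all but undetected. In GFPhigh, the dynorphin precursor gene Pdyn had 0 UMIs, the proopiomelanocortin gene Pomc 2 and the nociceptin precursor gene Pnoc 1. Among receptors, the delta receptor gene Oprd1 had 3 UMIs, the mu receptor gene Oprm1 2, the enkephalin-binding scavenger receptor gene Ackr3 1, and Oprk1 and Oprl1 0. A count of 0 in GFPhigh allowed up to 1.32 UPM. None of these UMIs lay in a Penk-positive cell. Such cells were 4.39% of the bin, so with so few UMIs this can arise by sampling alone.

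Of the genes that could serve to process or degrade the peptide, several were found, but the neuroendocrine convertases were not. The neuroendocrine convertase genes Pcsk1 and Pcsk2 had 0 UMIs in GFPhigh, as had Pcsk6 and the convertase inhibitor gene Pcsk1n, and carboxypeptidase E (Cpe) had 6. Carboxypeptidase M (Cpm) had 60 UMIs there and cathepsin L (Ctsl) 4. Scg5, which encodes a chaperone of the convertase Pcsk2, had 23 UMIs in 17 cells, none of them Penk-positive. With 4.39% of the bin Penk-positive, the upper bound of its log2 ratio was 1.79, so no difference was shown. The ubiquitous convertase gene Furin had 82 UMIs and Pcsk7 52, at log2 ratios of 0.50 [-1.29, 1.65] and -0.02 [-3.41, 1.60] between Penk-positive and Penk-negative cells. The cathepsin gene Ctsb, a lysosomal protease, stood at 515.3 UPM in Penk-positive and 192.9 in Penk-negative cells, a log2 ratio of 1.43 [0.99, 1.82], with a UMI in 30 of 78 positive cells. Among 4 measured peptide-degrading enzymes, the aminopeptidase gene Lap3 was at 1.38 [-0.23, 2.51], Dpp4 at 0.998 [-0.10, 1.83], Npepps at -0.10 and Dpp3 at -0.19. Ece1, an endopeptidase below the minimum of 50 UMIs, was at 2.20 [0.70, 3.33] from 7 and 32 UMIs, and neprilysin (Mme) had 0 UMIs.

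GFPhigh cells with a Penk UMI were then compared with those without, to show which transcripts accompany Penk within 1 sorted bin. The 78 positive cells held 108964 UMIs, Penk included, at a median depth of 1246.5, and the 1697 negative cells held 2161412 at a median of 1123. Ratios use UMIs other than Penk, with 0.5 UMI added to each count. Of 1851 genes with at least 200 UMIs in at least 20 cells, 234 (12.6%) were past 1.5-fold higher and 215 (11.6%) past 1.5-fold lower in positive cells, with a median log2 ratio of 0.03. Of those past the fold 52.1% were higher. With TMM scaling (edgeR's trimmed mean of M values), which lowers every ratio by a shift of -0.22, 6.16% of the genes were past 1.5-fold higher and 21.1% past it lower, so that 22.6% of those past the fold were higher. Directions near 0 thus depend on the scaling.

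Penk-positive cells held more transcripts of activation, survival and adhesion genes. The neuritin gene Nrn1 stood at 358.9 UPM in positive and 74.5 in negative cells, a log2 ratio of 2.28 [1.72, 2.78], but it was found in 12 positive cells, 1 of which held 30.8% of its UMIs. S100a11, which encodes a calcium-binding protein, was at 450.9 against 101.3 UPM (2.17 [1.68, 2.61]) and was found in 34.6% of positive and 8.72% of negative cells. The antiapoptotic genes Bcl2a1b (2.15) and Bcl2a1d (2.03) followed, and as near-identical paralogs they may share reads. Without cells holding at least 2 UMIs of other cell type lists, Bcl2a1b was at 1.35 and Bcl2a1d at 0.56.

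Further genes among the 15 highest were surface receptors and regulators of activated T cells. Cd83, an activation marker, was at 358.9 against 92.1 UPM (1.98 [1.43, 2.46]), and Tnfrsf9, the costimulatory receptor 4-1BB, at 782.1 against 245.7 (1.68 [1.323, 2.003]). Tnfrsf9 was found in 28 positive cells, 1 of which held 22.4% of its UMIs. The tetraspanin gene Cd81 (1.83) and the integrin beta 1 gene Itgb1 (1.55) encode membrane proteins. The transcription factor genes Maf (1.77) and Junb (1.64) were also in this group. Srgn, whose product serglycin is the proteoglycan core of secretory granules, had the most UMIs of the 15, at 3257 against 1094 UPM (1.58 [1.41, 1.74]). The remaining members were Mif4gd (1.92), Sh3bgrl (1.74), the scaffold gene Ahnak (1.60) and Nucb1 (1.69), for which 41.9% of the UMIs of positive cells came from 1 cell.

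Several of these genes were not high in GFPhigh as a whole. The log2 ratio of GFPhigh over GFPlow was -1.60 for Itgb1, -1.42 for Ahnak, -1.21 for S100a11 and -1.08 for Maf, all 4 lower in GFPhigh yet higher in its Penk-positive cells. Tnfrsf9 (3.71), Nrn1 (2.56) and Cd83 (2.03) were instead higher in both comparisons.

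The genes lower in Penk-positive cells included markers of resting and central Tregs. Klf2, a transcription factor that maintains quiescence and lymphoid recirculation, was at 110.4 UPM in positive and 477.0 in negative cells (-2.05 [-3.07, -1.30]), with a UMI in 7 of 78 and 579 of 1697 cells. Igfbp4, a marker of central Tregs, had 1 UMI in positive cells against 381 in negative cells, or 9.20 against 176.3 UPM (-3.68 [-9.57, -1.77]). Il6ra, the interleukin 6 receptor gene, had 0 UMIs against a level of 92.99 UPM in negative cells and was at least 3.37-fold lower, taking 3 UMIs over the positive cells as the floor. The kinase genes Prkcq (-2.05) and Prkcb (-1.91), which act downstream of antigen receptors, rested on 3 and 5 UMIs in positive cells. Whsc1l1, Ndrg3, Cdk19, Sumo3, Ubac2, Arid2, Cdkn2d, Rap1gds1 and Pdk1 had between 1 and 4 UMIs each in positive cells. The lowest ratio, that of the globin gene Hba-a2 (-4.59), came from 1197 UMIs in 19 negative cells, and it became 0.64 without the deepest 1% of cells.

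**Figure D3:**
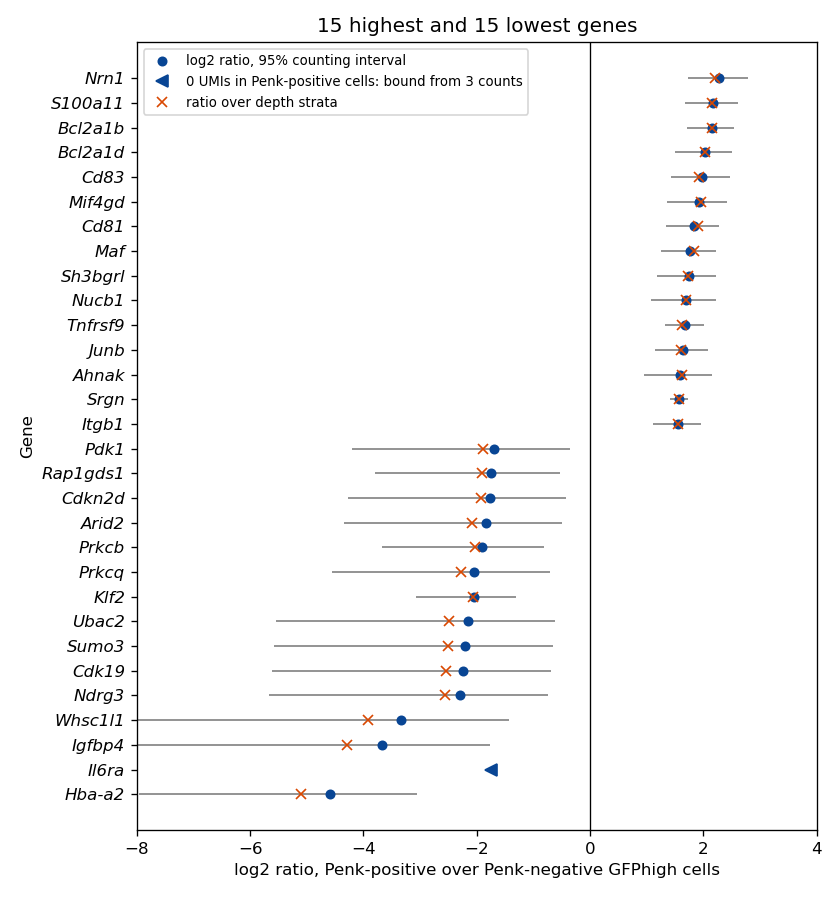
Log2 ratio of Penk-positive over Penk-negative GFPhigh cells for the 15 highest and 15 lowest genes with at least 200 UMIs, with 95% counting intervals. Crosses are the ratios over 10 classes of depth, such as 2.21 for Nrn1 and -2.07 for Klf2, and Il6ra with 0 UMIs is drawn at its bound.

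Activated Treg genes were higher and resting Treg genes lower in Penk-positive cells. List members with at least 50 GFPhigh UMIs were measured. Some genes belong to several lists, so the results of different lists are not independent. Over the 5787 genes with that many, 1340 (23.2%) were past 1.5-fold higher, 1021 (17.6%) past 1.5-fold lower, and the median log2 ratio was 0.09. Counts of members higher or lower compare the levels with no UMI added, by which 49.5% of the 5787 genes were higher, or 37.1% with TMM scaling. Of 21 activated Treg genes, 19 were higher and 2 lower in Penk-positive cells, 18 past 1.5-fold higher and 0 past it lower, with a median of 1.51. The same genes had a median of -0.72 for GFPhigh over GFPlow, with 3 of 21 higher. Fgl2, a secreted suppressive protein gene, was at 211.6 against 13.9 UPM (3.94 [3.08, 4.76]) from 23 and 30 UMIs. The chemokine receptor gene Cxcr3 (2.53), the inhibitory receptor gene Klrg1 (2.45) and S100a4 (2.39) had 12 or 13 UMIs each in positive cells. In positive cells 1 cell held 34.8% of the Fgl2 and 50% of the Klrg1 UMIs. The 2 lower members were Vim (-0.24) and Crip1 (-0.17).

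Of 17 resting Treg genes, 16 were lower and 1 higher, 13 past 1.5-fold lower, with a median of -0.77, beside 0.02 for GFPhigh over GFPlow. Besides Igfbp4 and Klf2, Txk (-2.002), the actinin gene Actn1 (-1.43), the transcription factor gene Tcf7 (-1.05) and the egress receptor gene S1pr1 (-1.03) were lower. The exception was the interleukin 7 receptor gene Il7r, at 0.79 [-0.20, 1.55], whose direction the counting error does not settle. With TMM scaling both lists kept their counts of members higher and lower.

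Of 24 TCR response genes, 17 were higher and 7 lower, 14 past 1.5-fold higher and 2 past it lower, with a median of 0.88, and with TMM scaling 15 were higher and 9 lower. Cd83, Irf4 (1.93), Bhlhe40 (1.90), Nfkb2 (1.86) and Tnfrsf4, the costimulatory receptor OX40 (1.45 [1.12, 1.76]), were among the higher members. Irf4 had 13 UMIs in 6 positive cells, 38.5% of them in 1 cell, and Bhlhe40 12 in 7, 33.3% of them in 1. The response was not uniform. Egr1, an early zinc finger factor gene, was at 27.6 against 92.5 UPM (-1.53 [-4.03, -0.18]) from 3 UMIs in positive cells, while its relative Egr2 was at 128.8 against 52.7 (1.33 [0.37, 2.09]). The interleukin 2 receptor gene Il2ra was at -0.11 [-0.56, 0.28]. Nr4a1 itself, whose reporter defined the bins, was at 478.5 against 333.6 UPM, a log2 ratio of 0.53 [0.09, 0.93].

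The Treg signature was higher in 12 of 15 members and lower in 3, with 7 past 1.5-fold higher, 1 past it lower and a median of 0.56, while with TMM scaling 10 were higher. Ikzf2, which encodes the transcription factor Helios, was at 1684 against 744.9 UPM (1.18 [0.95, 1.40]) and was found in 63 of 78 positive and 732 of 1697 negative cells. Cd81, the ectonucleotidase gene Nt5e (1.17), Capg (1.16) and the folate receptor 4 gene Izumo1r (0.63 [0.43, 0.82]) were also higher. Foxp3 was at 0.27 [-0.21, 0.68], Cd4 at 0.73 [0.38, 1.05] and Thy1 at -0.12 [-0.44, 0.17]. All 78 positive cells held a UMI of the signature list, against 91.3% of negative cells, and after thinning the shares were 96.2% [89.2, 99.2] and 80.3% [78.3, 82.1].

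Lists of signalling and transcription factors differed in their share of higher members. NF-kappa-B genes had 12 of 13 members higher, or 11 with TMM scaling, and 9 were past 1.5-fold higher, with a median of 0.68. Nfkb2, the antiapoptotic gene Bcl2l1 (1.74) and the coactivator gene Bcl3 (1.248) had the highest ratios, but 1 cell held 50% of the Bcl2l1 UMIs of positive cells. AP-1, CREB and NFAT factors were higher in 7 of 11 cases with either scaling, at a median of 0.61. By the ratios with 0.5 UMI added 7 were past 1.5-fold higher, or 4 with TMM scaling. One of the 7, Nfatc2, passed only with the added UMI, at 73.6 against 51.8 UPM (0.59). The CREB family gene Crem (1.99), Junb and Batf (1.45) were the highest. TNF receptor superfamily genes numbered 5 higher and 3 lower of 8, with 4 past 1.5-fold higher and 1 past it lower, at a median of 0.52, and the highest were Tnfrsf9, Tnfrsf1b (1.53) and Tnfrsf4. Interleukin 2 and STAT5 genes numbered 8 higher and 7 lower of 15, or 5 and 10 with TMM scaling, with 3 past 1.5-fold higher and 2 past it lower. Their shares of higher members, 53.3% and 33.3% with TMM scaling, were near those of all genes. The median was 0.10 and became -0.12 with TMM scaling, and Socs3, which encodes an inhibitor of cytokine signalling, was at -1.21 [-2.78, -0.18].

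Genes of suppression and inhibition had more members higher than lower. Of the genes in this paragraph's lists, Fgl2, Ebi3, Lag3, Tigit, Pdcd1 and Icos also belong to the activated Treg list. Of 8 suppressive molecules 7 were higher, or 6 with TMM scaling, 5 past 1.5-fold higher and 0 past it lower, at a median of 1.14. Fgl2, Nt5e, and Lag3 and Ebi3 with 7 UMIs each in positive cells (each 1.48), had the highest ratios, but 1 cell held 57.1% of those Lag3 UMIs. Of 16 inhibitory receptors and dampeners 12 were higher, or 10 with TMM scaling, 7 past 1.5-fold higher and 0 past it lower, at a median of 0.51, and the highest were the receptor gene Pdcd1 at 202.4 against 43.95 UPM (2.23 [1.46, 2.88]), Ubash3b (1.66) and the transcription factor gene Tox (1.29). All 4 measured follicular genes were higher, with a median of 1.51, namely Pdcd1, Cxcr5 (1.67 [0.40, 2.62]), Icos (1.34) and Sh2d1a (0.87).

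The directions of interferon and cell cycle genes depended on the setting. Interferon genes numbered 9 higher and 11 lower of 20, or 3 and 17 with TMM scaling, 2 past 1.5-fold higher and 6 past it lower, with a median of 0.06 that became -0.16 with TMM scaling and -0.64 without cells holding UMIs of other cell type lists. Ly6a was lower at -1.37 [-2.51, -0.55] and may share reads with its paralogs. Of 15 cell cycle genes 12 were higher, or 9 with TMM scaling, 6 past 1.5-fold higher and 0 past it lower, at a median of 0.57. However, 1 cell held 92.3% of the Ube2c and 52.5% of the Hmgb2 UMIs of positive cells, and without cells holding UMIs of other cell type lists the median was -0.48. After thinning, 65.4% [53.8, 75.8] of positive and 68.1% [65.8, 70.3] of negative cells held a cell cycle UMI.

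**Figure D4:**
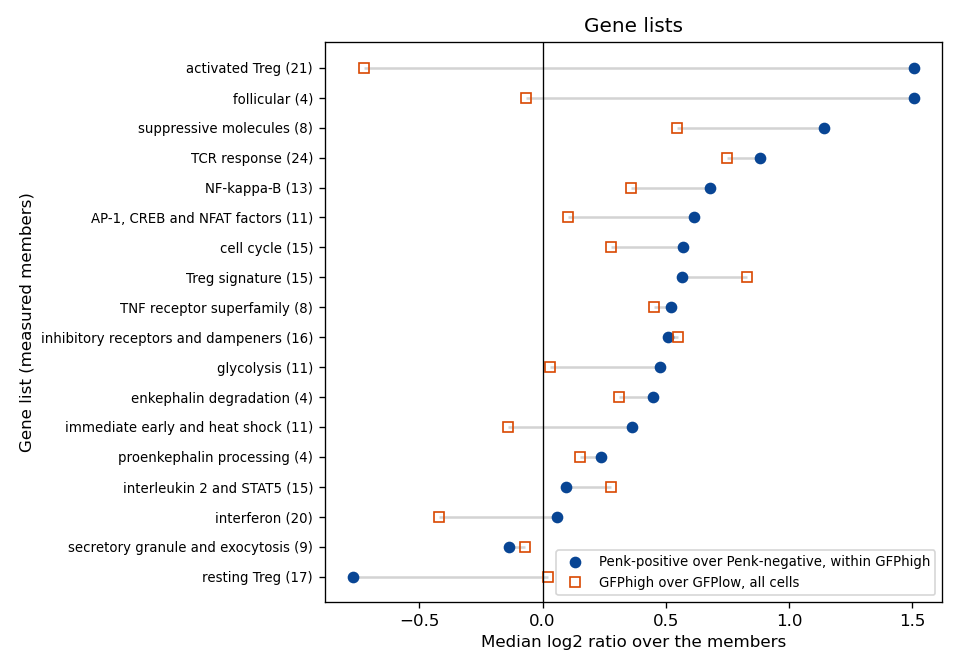
Median log2 ratio of each list for Penk-positive over Penk-negative GFPhigh cells (filled circles) and for GFPhigh over GFPlow (open squares), with the number of measured genes in parentheses. Activated Treg genes lie at 1.51 and -0.72, resting Treg genes at -0.77 and 0.02, and TCR response genes at 0.88 and 0.75.

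The list differences were spread over many positive cells and were present at equal depth. After thinning to 500 UMIs, an activated Treg UMI was found in 73.1% [61.8, 82.5] of positive and 55.98% [53.6, 58.4] of negative cells. At least 2 were found in 53.8% [42.2, 65.2] and 28.2% [26.1, 30.4]. For the resting list at least 2 UMIs were found in 29.5% [19.7, 40.9] and 63.1% [60.8, 65.4]. TCR response genes differed less by this measure, with at least 2 UMIs in 57.7% [45.98, 68.8] and 42.96% [40.6, 45.4]. No positive cell held more than 8.94% of the UMIs of any of these 3 lists.

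The activated list was also higher in positive cells within each class of thinned TCR response UMIs. The classes held 14, 30 and 34 positive cells. Cells of a class can still differ in their TCR response, since thinned counts are low and the top class has no upper bound. Its 20 genes outside the TCR response list had a summed log2 ratio, positive over negative, of 1.04 [0.62, 1.42] in cells with 0 response UMIs. It was 1.11 [0.90, 1.31] in cells with 1 or 2 and 0.93 [0.72, 1.13] in cells with 3 or more. The resting list was at -0.31 [-0.68, 0.02], -1.23 [-1.53, -0.96] and -0.69 [-0.97, -0.43] in the same classes, and only the first of these intervals reached 0.

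The lists followed the number of Penk UMIs in different ways. GFPhigh cells with 0, 1, 2 to 3 and at least 4 Penk UMIs numbered 1697, 27, 20 and 31. Their summed TCR response level was 3536, 4731, 5293 and 7041 UPM, and their TNF receptor superfamily level 1543, 2380, 2352.6 and 4080. Both lists include Tnfrsf9 and Tnfrsf4, so these levels rest partly on the same counts. By counting error alone, the TCR response level of cells with at least 4 UMIs [6324, 7816] lay above that of cells with 1 UMI [4036, 5510]. The activated list was at 2280, 4702, 5462 and 4860 UPM and the Treg signature at 4718, 7168, 7604 and 7361, so both were already high at 1 Penk UMI and the 3 positive classes had overlapping intervals. The resting list was at 5131, 3211, 3277 and 2140 UPM.

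**Figure D5:**
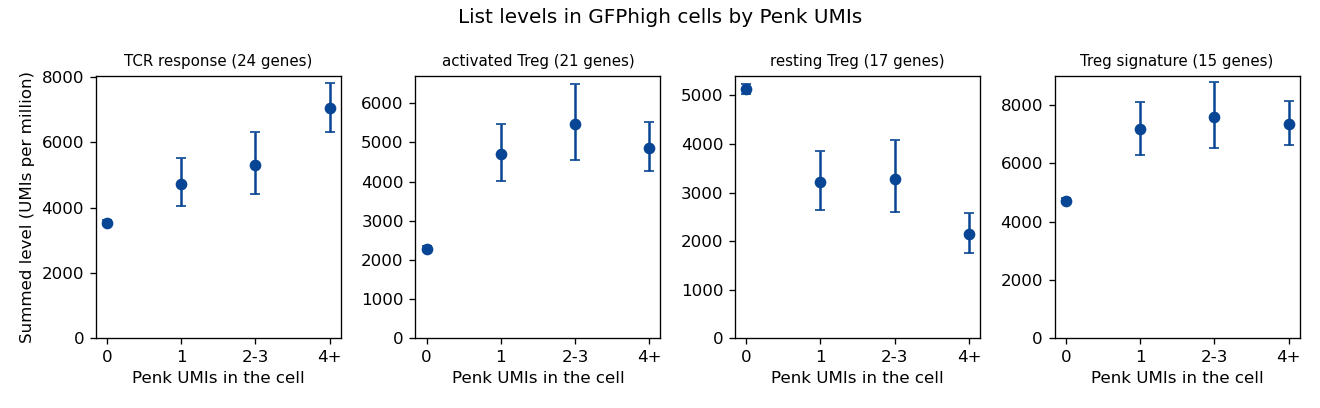
Summed level in UPM of 4 gene lists in GFPhigh cells by their number of Penk UMIs, with 95% counting intervals. The TCR response list goes from 3536 to 7041 UPM over the classes, while the activated list goes from 2280 to 4702 between 0 and 1 UMI and lies between 4702 and 5462 from there on.

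Penk-positive cells of the other libraries, whose cells had no part in ranking these genes, differed from Penk-negative cells in the same directions by the summed levels. The 10 positive GFPlow cells had the 15 highest genes, summed, at 8801 UPM against 3450 in negative GFPlow cells, a log2 ratio of 1.36 [1.07, 1.62], and 14 of the 15 genes were above the negative level. The 12 positive GFPmed cells had them at 4634 against 2109 UPM (1.14 [0.90, 1.37]), with 13 of 15 above. Without Srgn, which had the most UMIs of the 15, the ratios were 1.41 [1.04, 1.73] and 1.19 [0.87, 1.47]. The 15 lowest genes without Hba-a2 were at -0.62 [-1.34, -0.04] in GFPlow and -0.51 [-0.93, -0.15] in GFPmed, beside -2.40 [-2.88, -1.98] in GFPhigh, where they were ranked. Of these 14 genes 4 were above the negative level in each of GFPlow and GFPmed.

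By their summed levels the lists gave the same signs there. Activated Treg genes were at 0.67 [0.36, 0.94] in GFPlow and 1.36 [1.16, 1.55] in GFPmed, and resting Treg genes at -1.25 [-1.85, -0.76] and -1.26 [-1.60, -0.94]. TCR response genes were at 0.79 [0.34, 1.17] and 0.52 [0.23, 0.78], and the Treg signature at 0.50 [0.09, 0.87] and 0.57 [0.34, 0.79]. In GFPlow 11 of 21 activated, 2 of 17 resting, 16 of 24 TCR response and 8 of 15 signature genes were above the negative level. In GFPmed these counts were 19, 1, 13 and 11. Several sums were thus not shared by all members, and no share over all genes is given beside these counts. All these values rest on 10 and 12 cells, with no replicate library.

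In Penk-positive cells the summed levels of the B cell, erythroid and plasma cell marker lists were lower, but not every member was. The CD8 T and NK cell list was higher, and the myeloid list was not told apart from negative cells. Markers confined to few cells can be at 0 in 78 cells by sampling alone. In the positive cells 8 of 10 B cell markers were at 0. The whole B cell list had 16 UMIs, of which 15 were Cd74, and its level was 147.2 UPM [84.2, 239.1] against 370.6 in negative cells. Cd74 itself was at a log2 ratio of 0.09 [-0.82, 0.79]. Of 7 erythroid markers 5 were at 0, and the list stood at 27.6 UPM against 1103. Its most abundant member, Hba-a2, had a UMI in 2 of 78 positive and 19 of 1697 negative cells. Jchain had 0 UMIs in positive cells against 483, which lay in only 10 of 1697 negative cells. Of 6 plasma cell markers 4 were at 0, and the list stood at 193.2 UPM against 356.7. Within it Xbp1, at a log2 ratio of 0.61 [-0.30, 1.32], and Prdm1, at 1.51 [-0.11, 2.64], were not lower. Of 12 myeloid markers 9 were at 0, Ctss giving 47 of the 58 UMIs, at 533.7 [405.3, 689.9] against 427.0 UPM. CD8 T and NK cell markers were higher, at 266.8 UPM [178.7, 383.2] against 142.04, with 6 of 9 at 0 and Ccl5 giving 17 of 29 UMIs. At least 2 UMIs of these lists, which hold genes that Tregs express such as Ctss and Xbp1, were found in 37.2% of positive and 24.1% of negative cells. Without those cells the activated median was 1.30, the resting median -0.66 and the TCR response median 0.57.

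Over the 3 bins, the gene nearest to Penk was Tnfrsf9. Likeness was the distance between the pairs of log2 ratios GFPmed over GFPlow and GFPhigh over GFPlow, over 3 libraries and 6635 genes with at least 100 UMIs. The 6 nearest genes were Tnfrsf9 (distance 1.04), Nr4a1 (1.43), the endophilin gene Sh3gl3 (1.52), Nrn1 (1.77), the glutathione transferase gene Gsta4 (1.77) and Lad1 (1.89). Among them only Gsta4, with 2 UMIs in GFPlow, had a higher ratio of GFPhigh over GFPlow (5.33) than Penk (4.32). Genes alike over the bins were not all high in the same GFPhigh cells. Nrn1 and Tnfrsf9 were higher in Penk-positive cells, but Gsta4 had 1 UMI there against 92 in negative cells (-1.63 [-7.53, 0.30]) and Lad1 3 against 93 (-0.43 [-2.94, 0.95]).

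Of the neighbouring genes 3 had enough UMIs to be compared between bins. Of the 5 nearest genes of the table on either side of Penk, the retinol dehydrogenase family genes Sdr16c6 and Sdr16c5 had 0 UMIs in all 3 libraries. Chchd7 stood at 36.9, 34.2 and 31.7 UPM in GFPlow, GFPmed and GFPhigh, Impad1 at 20.5, 26.3 and 19.4, and Ubxn2b at 13.5, 14.3 and 12.8. Their log2 ratios of GFPhigh over GFPlow were -0.22 [-0.69, 0.24], -0.08 [-0.70, 0.53] and -0.08 [-0.86, 0.68]. Fam110b had 4 UMIs in GFPhigh and 0 in the other libraries, while Plag1, Mos, Gm11780 and 4930423M02Rik had at most 1 UMI in any library.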

How the data were processed

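Counts were deposited by the authors as whole UMI counts per gene and cell, 1 column per cell. Per the submitters' processing notes, TopHat2 and SAMtools were used with mm10, with versions, annotation, counting program and UMI rule not given in the sources used here. The table's UMIs summed to 98.7% of those in the labels, and 0 columns were left unused. Each cell took its bin from its label.

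UMIs were summed over cells with at least 500 UMIs (0.5 UMI added, in Python 3.11.15 with SciPy 1.17.1). Intervals are exact Poisson for levels, conditional binomial for ratios and Clopper-Pearson for shares. PCR and droplet losses are not covered. Penk-positive means at least 1 Penk UMI. Doublets were not called, and cells with UMIs of other cell types were left out as an alternative. TMM factors came from edgeR 4.0.16, with no count test. Named genes were the 15 highest and 15 lowest, up to 4 members per list, all opioid system genes, Nr4a1, Foxp3, Cd4 and Thy1, the 6 nearest genes and 5 neighbours on each side. Others named were chosen after their values were seen.

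Penk, the lists and the comparisons were chosen with earlier results of these data known. On simulated counts for 1854 genes, 95.4% of intervals of unchanged genes held the truth. These counts were drawn as pooled totals without variation between cells. The simulation therefore checks the calculation only and does not show that the intervals hold for these cells.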

Additional observations from a re-analysis of the deposited data

Results flagged for a closer look

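Penk was also found in GFPhigh barcodes that the comparisons left out. The 277 GFPhigh barcodes with under 500 UMIs held 19 Penk UMIs in 12 barcodes, with at most 4 in 1, or 166.8 UPM [100.4, 260.5], beside 126.9 UPM [112.6, 142.4] in the cells used. The 249 GFPlow barcodes of that depth and those of GFPmed held 0 Penk UMIs, which allows up to 29.4 and 55.6 UPM. This signal was picked out because it lies in barcodes outside the comparisons and above the level of the other libraries. The difference was not tested, since each bin is 1 library.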

How the results depend on the processing

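The log2 ratio of Penk for GFPhigh over GFPlow moved by less than its counting error under all 9 alternatives. Without cells holding at least 2 UMIs of other cell type lists, GFPhigh over GFPmed was 4.97, GFPmed over GFPlow -0.60 and the GFPmed share 0.267%, and the cause was not tested. Those lists hold genes that Tregs express, such as Ctss and Xbp1, and this filter took 37.2% of Penk-positive and 24.1% of Penk-negative GFPhigh cells. Requiring 2 Penk UMIs gave shares of 2.87%, 0.390% and 0.141% in GFPhigh, GFPmed and GFPlow, and thinning gave 2.93% in GFPhigh and 0.141% in GFPlow. TMM scaling gave list medians of 0.66 (TCR response), 0.34 (Treg signature), 1.29 (activated) and -0.99 (resting). Without cells of other types, TCR response was 0.57 and activated 1.30, and with at least 2 Penk UMIs activated was 1.75. Of the genes tested, 3.24% were past the fold higher and 3.62% lower at 2-fold, 6.16% and 21.1% with TMM, and 47.3% higher with at least 1 UMI, where the added 0.5 UMI alone lifts genes unseen in positive cells. The counts were 234 higher and 215 lower as reported, 60 and 67 at 2-fold, 646 and 530 with at least 100 UMIs and 6206 and 1874 with at least 1 UMI. Of 240 recomputed ratios of the 30 highest and lowest genes over 8 settings, 12 left the counting error with the same sign and 2 reversed, both Hba-a2 (2.21 without cells of other types and 0.64 without the deepest 1%). The B cell (1.72) and erythroid (2.76) medians reversed without cells of other types. That filter acts on the markers themselves, and with few UMIs left the added 0.5 UMI lifts the ratio, so these signs show no difference. No paired analysis was possible because each bin has 1 library. Depth limits transcripts in Penk-positive cells, where 3 UMIs are 27.6 UPM.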

Other observations

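Metabolic and stress transcripts and the secretory machinery were described in the same Penk-positive and Penk-negative GFPhigh cells. Of 11 measured glycolysis genes 10, or 8 with TMM scaling, were higher in positive cells, 3 of them past 1.5-fold, where 23.2% of all genes were, with a median log2 ratio of 0.47, beside 0.03 for GFPhigh over GFPlow. The triosephosphate isomerase gene Tpi1 was at 138.02 against 53.7 UPM (1.40 [0.48, 2.14]) and the phosphoglycerate mutase gene Pgam1 at 230.04 against 95.8 (1.29 [0.60, 1.87]). Immediate early and heat shock genes, which tissue dissociation can also induce, were higher in 8 of 11 cases, at a median of 0.36, and in 6 of 11 with TMM scaling. Among them the phosphatase gene Dusp1 was at 2.15 [1.12, 2.99] and the heat shock gene Hsph1 at 1.23, whereas Klf6 was at -0.75 [-2.06, 0.16]. The part of dissociation was not tested.

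Of 9 measured genes of granules and exocytosis 3 were higher and 6 lower, at a median of -0.14 that became 0.26 when positive cells had at least 2 Penk UMIs. Unc13d and Rab27a, which prime and dock secretory granules, had 1 and 2 UMIs in positive cells (-1.26 [-7.16, 0.69] and -1.10 [-4.48, 0.47]), and the vesicle fusion gene Vamp8 was at 0.57 [-0.20, 1.19]. All 3 intervals included a log2 ratio of 0.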
